A study of Mus musculus with 4 samples.

Results

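Expression of 10 genes that activate glucocorticoids, receive them or answer to them was measured in epididymal fat, a visceral depot next to the testis, from C57Bl/6J mice on 2 high-fat diets. The genes were chosen by symbol for their known roles (Hsd11b1, H6pd, Nr3c1, Nr3c2, Fkbp5, Tsc22d3, Zbtb16, Sgk1, Cdkn1a and Mt2), with earlier results of these data known. All 10 of them were found among the 18194 genes of the array. Each gene was represented by its probe set with the highest mean log2 signal over the 4 arrays, and its other probe sets were read beside it. Feeding began at 9 weeks of age and lasted 21 weeks, with 10 mice per diet and fat supplying 60% of energy in both diets. The tested diet contained 1.8% calcium together with whey protein isolate, and the standard diet contained 0.4% calcium. Calcium and whey protein differed together, so their parts cannot be told apart. The labels give 2 high-calcium arrays (replicates 1 and 2) and 1 standard array, each from 1 mouse. The diet of the remaining array is not settled by its labels, although 2 mice per diet were stated, and its values are given without a comparison between diets. Protocols name the tissue and no cell type, and in whole tissue fewer cells of a type and less RNA per cell cannot be told apart.

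Glucocorticoid action in fat depends on local hormone activation as well as on the level in blood. The enzyme encoded by Hsd11b1 sits in the endoplasmic reticulum and turns the inert keto form of corticosterone back into active hormone, using NADPH that H6pd makes inside the same compartment. The hormone binds the glucocorticoid receptor (Nr3c1) or the mineralocorticoid receptor (Nr3c2), which move to the nucleus and bind DNA. Fkbp5, Tsc22d3, Zbtb16 and Sgk1 are commonly read as targets of the receptor, whereas Cdkn1a and Mt2 also answer to other inputs, DNA damage and metals among them. In fat the pathway is known for its part in adipocyte formation, in lipid turnover and in the growth of visceral depots. The hormonal form of vitamin D, whose level dietary calcium lowers, has been linked to Hsd11b1 in cultured fat cells.

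Promoter sequence was examined because the receptor binds a short palindrome, and the windows that hold its letters are shown first. RefSeq windows of 300 bases on GRCm38.p6, from 250 before to 50 after a transcript start, were available for 8 of the 10 genes, 16 windows in all, and Nr3c1 and Zbtb16 had none in the table used. The half-site AGAACA was searched on both strands, where it reads TGTTCT on the other strand, and so was the full palindrome of AGAACA, 3 free bases and TGTTCT, which contains 2 half-sites. A half-site occurred in 5 of these 16 windows, against 19% of all 32851 windows. These came from 3 of the 8 genes, Sgk1, Tsc22d3 and H6pd, and most of them from Sgk1. Since Sgk1 alone has 6 of the 16 windows, the windows are not independent, and no share by gene was computed over all genes. The full palindrome occurred in 1 of the 16 windows, from Sgk1, and in 3 of all 32851 (0.00913%). Half-sites are in capitals in the following windows, one from each of the 3 genes, with chr10:21993640-21993939 (plus strand) for Sgk1, chrX:140600473-140600772 (minus strand) for Tsc22d3 and chr4:150003187-150003486 (minus strand) for H6pd.
Sgk1: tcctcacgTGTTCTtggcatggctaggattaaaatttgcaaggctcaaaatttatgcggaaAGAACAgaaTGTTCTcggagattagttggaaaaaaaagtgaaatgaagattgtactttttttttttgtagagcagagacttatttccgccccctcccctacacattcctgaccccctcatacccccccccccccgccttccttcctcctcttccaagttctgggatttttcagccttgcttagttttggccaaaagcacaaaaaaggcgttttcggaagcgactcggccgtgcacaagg
Tsc22d3: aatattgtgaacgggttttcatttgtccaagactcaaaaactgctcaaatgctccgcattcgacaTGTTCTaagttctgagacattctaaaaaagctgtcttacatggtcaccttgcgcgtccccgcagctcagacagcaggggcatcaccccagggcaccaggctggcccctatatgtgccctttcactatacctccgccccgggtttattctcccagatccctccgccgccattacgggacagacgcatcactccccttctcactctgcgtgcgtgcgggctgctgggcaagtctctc
H6pd: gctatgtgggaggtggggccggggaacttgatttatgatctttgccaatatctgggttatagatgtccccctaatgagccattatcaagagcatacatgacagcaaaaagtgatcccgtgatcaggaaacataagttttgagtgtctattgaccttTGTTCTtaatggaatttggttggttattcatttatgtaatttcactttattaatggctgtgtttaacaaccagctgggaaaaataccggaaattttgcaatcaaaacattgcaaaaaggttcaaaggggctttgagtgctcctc
In the Sgk1 window the palindrome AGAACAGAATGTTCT begins 189 bases before the start site of that transcript and 965 bases before the last of the 6 start sites listed for the gene. A match is a description of letters and does not show that the receptor binds there, and a window without a match says nothing of sites elsewhere in the gene.

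All 10 genes lay above background on all 4 arrays, as did 10464 of all 18194 genes, background being the median signal of each array. Median signal was 0.0963 and 0.0628 on high-calcium replicates 1 and 2 and 0.0624 on the standard array, on the linear scale as deposited, and 0.0585 on the array of open diet. Adipocyte markers were bright throughout, with 6 of 6 measured markers above background on every array. Their summed signal was 136 and 123 on the high-calcium arrays and 119 on the standard array, with 3 markers higher on both, 0 lower and 3 split. Other cell types varied more, and high-calcium replicate 1 stood apart. Its summed smooth muscle signal (6 markers, all above background there) was 60.6, while replicate 2 had 8.81 and the standard array had 9.98. Its summed macrophage signal (7 of 7 markers above background on every array) was 18.3, while replicate 2 had 34.0 and the standard array had 33.2. Endothelial signal (6 of 6 markers above background on every array) was 2.28 and 2.13 on the high-calcium arrays and 3.39 on the standard array. Fibroblast and progenitor signal (5 of 5 markers above background on every array) was 44.1 and 54.9 there and 59.5 on the standard array. Of these 5 markers, 2 were lower on both high-calcium arrays, 0 higher and 3 split. Mesothelial markers were higher on both high-calcium arrays in 4 of 5 cases, with sums of 4.42 and 1.63 there and 1.45 on the standard array. The split marker, Krt19, was the brightest of the 5 on replicate 1 and weighs heavily in that sum. Its log2 signals were 1.35 and -1.89 on the high-calcium arrays and -0.63 on the standard array. Signal of epididymis and duct (5 of 6 listed markers measured, 3 above background on the 3 labelled arrays) was 12.0 and 0.498 on the high-calcium arrays and 2.75 on the standard array. The markers went different ways, with 2 higher on both, 1 lower and 2 split. Defb42 was the brightest of them on replicate 1, at a log2 signal of 3.25. Adgrg2 was the lower one, at -1.62 and -2.84 against 0.61 on the standard array. B cell signal (4 markers) was 2.41 and 0.278 on the high-calcium arrays and 0.442 on the standard array. Germ cell signal (4 markers) was 2.26 and 0.312 on the high-calcium arrays and 1.84 on the standard array. Of 5 adrenal cortex markers, Star and Mc2r were above background on all 4 arrays and Cyp11a1 on high-calcium replicate 1 and the array of open diet. Cyp11b1 and Cyp11b2, which make corticosterone and aldosterone, were not above background on any array. In this list 4 of 5 markers were higher on both high-calcium arrays, the steroid synthesis enzymes Cyp11b1 and Cyp11b2 among them at levels under background. By comparison, 38.6% of all 18194 genes were higher on both high-calcium arrays and 23.9% were lower. With 1 standard array, a difference between diets cannot be told apart from a difference between that mouse and the others.

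None of the 10 genes passed the test between diets, although 8 of them lay on one side of the standard array on both high-calcium arrays. By the probe set that represents each gene, lower on both were 6, Hsd11b1 (by a trace on replicate 1), Nr3c1, Fkbp5, Tsc22d3, Zbtb16 and Sgk1. Higher on both were 2, Cdkn1a and Mt2, while H6pd and Nr3c2 were split. Of all 18194 genes, 23.9% lay below the standard array on both high-calcium arrays and 38.6% lay above it. Among the 10612 genes above background on the 3 labelled arrays these shares were 26.8% and 35.5%. The median log2 difference, high-calcium minus standard, was -0.13 over the 10 genes, 0.08 over all genes and 0.03 over genes above background. limma's moderated test with Benjamini-Hochberg adjustment called 0 of the 10 genes and 0% of all 18194 genes at an adjusted p under 0.05, and every one of the 10 had an adjusted p of 0.9999. At an unadjusted p under 0.05 limma had 0 of the 10 genes and 4.94% of all genes. When the prior variance followed signal and was estimated robustly, it called 6 genes, none of them among the 10. The 95% intervals of the 10 genes, which are not adjusted, were wide. The narrowest ran from -1.31 to 1.07 log2 units (Nr3c1), so a difference of 1 log2 unit in either direction lay within it and was not detectable. The adjusted threshold is stricter than these intervals, and the smallest adjusted p of any gene in limma was 0.978.

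**Figure D1:**
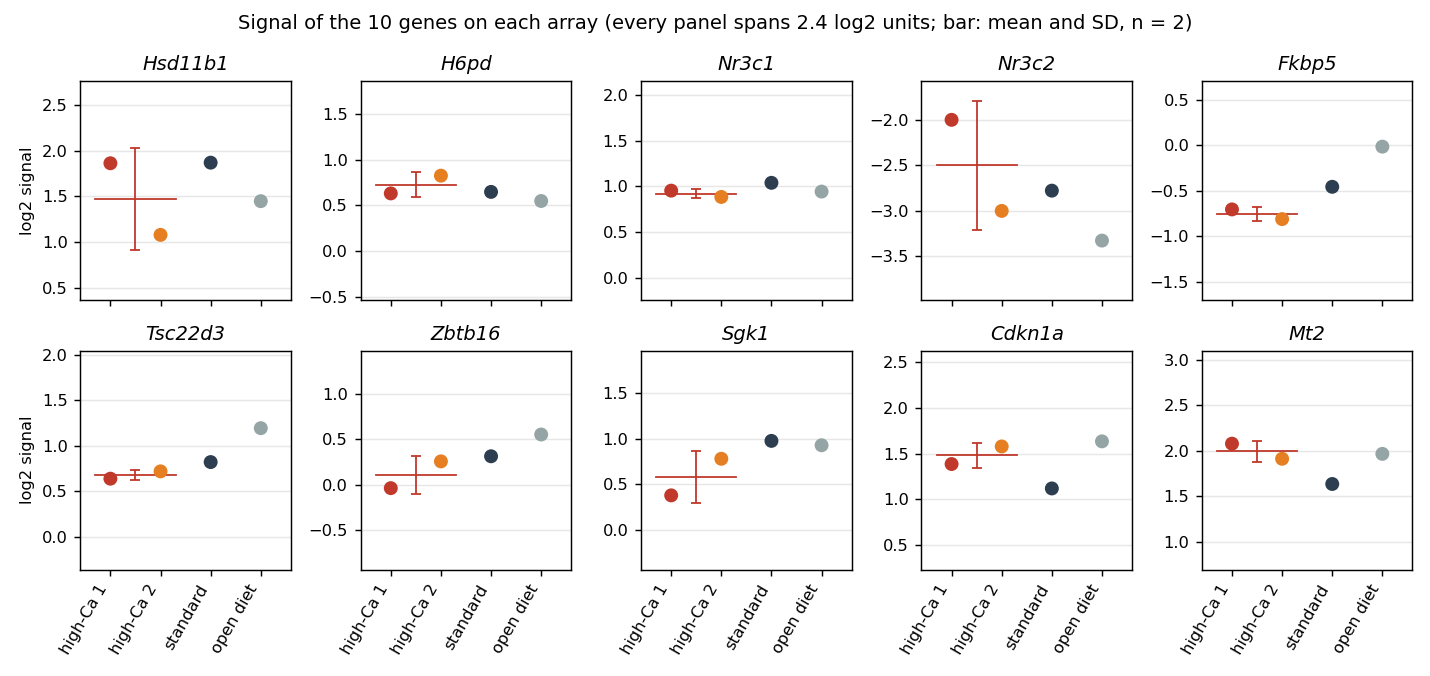
Log2 signal of each gene (vertical axis, each panel spanning the same 2.4 log2 units) on the 2 high-calcium arrays, the standard array and the array of open diet, with the mean and SD of the high-calcium arrays as a red bar (n = 2). Fkbp5, Tsc22d3 (on this probe set), Zbtb16 and Sgk1 are lower on both high-calcium arrays than on the standard array, and Cdkn1a and Mt2 are higher on both.

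Of the activating enzymes, Hsd11b1 had log2 signals of 1.86 and 1.08 on high-calcium replicates 1 and 2, against 1.87 on the standard array, and 1.45 on the array of open diet. High-calcium replicate 1 was thus level with the standard array and only replicate 2 was lower. The mean difference was -0.40 (SE 0.54, 95% interval from -2.42 to 1.62), and it rested on replicate 2, since it was -0.01 without it and -0.79 without replicate 1. The gap of 0.79 between the 2 high-calcium arrays was larger than that of 88.5% of the genes above background. H6pd, the NADPH source, had 0.63 and 0.82 on the high-calcium arrays, against 0.65 on the standard array, and 0.55 on the array of open diet. Its groups overlapped, with a difference of 0.08 (SE 0.34). Hsd11b2, which inactivates the hormone and was picked here after its values were seen, was split as well, at -5.13 and -2.91 on the high-calcium arrays against -3.96 on the standard array, with replicate 1 not above background.

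Of the receptors, Nr3c1 was the steadiest of the 10 genes between the high-calcium arrays, at 0.95 and 0.88 there, against 1.04 on the standard array, and 0.94 on the array of open diet. The differences from the standard array were -0.09 and -0.15, and the array of open diet lay among them. The fitted difference was -0.12 (SE 0.32). Nr3c1 had 6 probe sets, 4 of them brighter than background on every array, and 3 of these 4 were lower on both high-calcium arrays. The fourth, 1421867_at, was split, at 1.03 and 0.68 on the high-calcium arrays against 0.85 on the standard array. Nr3c2 was dim, at 1.70 to 2.59 times the array median, and varied most of the 10. Its log2 signals were -2.0 and -3.0 on the high-calcium arrays, against -2.78 on the standard array, and -3.33 on the array of open diet. High-calcium replicate 1 was the highest of the 4 arrays and replicate 2 lay below the standard array, so the difference of 0.28 (SE 0.64) turned to -0.22 without replicate 1. Replicate 1 was also the array with the high smooth muscle signal and the highest median signal given above. Relative to each array's median, Nr3c2 was at 2.59 and 1.99 on high-calcium replicates 1 and 2 and at 2.34 on the standard array. On median-centred arrays its difference was -0.040. The part of smooth muscle cells and of the array's level in the value of Nr3c2 was not tested.

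Of Fkbp5, Tsc22d3 and Zbtb16, widely used readouts of the receptor, Fkbp5 and Zbtb16 were lower on both high-calcium arrays in every probe set above background, whereas 2 of the 3 such probe sets of Tsc22d3 were higher on both. Fkbp5, a co-chaperone that lowers the receptor's affinity for hormone, had -0.70 and -0.81 on the high-calcium arrays, against -0.46 on the standard array, and -0.02 on the array of open diet. Its high-calcium arrays lay close together and its difference of -0.30 (SE 0.32) was larger than the gap of 0.11 between them. A second Fkbp5 probe set above background, 1448231_at, was lower on both as well, at -3.09 and -2.41 on the high-calcium arrays against -2.08 on the standard array. The remaining one, 1447736_at, was not above background on any array.

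Tsc22d3, the anti-inflammatory leucine zipper protein GILZ, had 0.64 and 0.72 on the high-calcium arrays, against 0.82 on the standard array, and 1.19 on the array of open diet. The groups did not overlap, with a difference of -0.14 (SE 0.32). Its probe sets disagreed, however. The others above background on all 4 arrays went the other way, with 1425281_a_at at 0.20 and 0.05 on the high-calcium arrays against 0.04 on the standard array, and 1425557_x_at at -1.33 and -1.76 on the high-calcium arrays against -2.02 on the standard array. The mean of the 3 probe sets above background gave 0.14 in place of -0.14, a setting added after the data had been seen, so no direction can be given for Tsc22d3. Zbtb16, a zinc finger transcription factor, had -0.04 and 0.26 on the high-calcium arrays, against 0.31 on the standard array, and 0.55 on the array of open diet. Replicate 1 carried most of its difference of -0.20 (SE 0.36), at -0.35 there against -0.06 on replicate 2. A second Zbtb16 probe set, 1419874_x_at, was lower on both, at -1.09 and -1.12 on the high-calcium arrays against -0.96 on the standard array. Its name, like those of the 3 Tsc22d3 probe sets above background, marks it as one that can share transcripts.

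**Figure D2:**
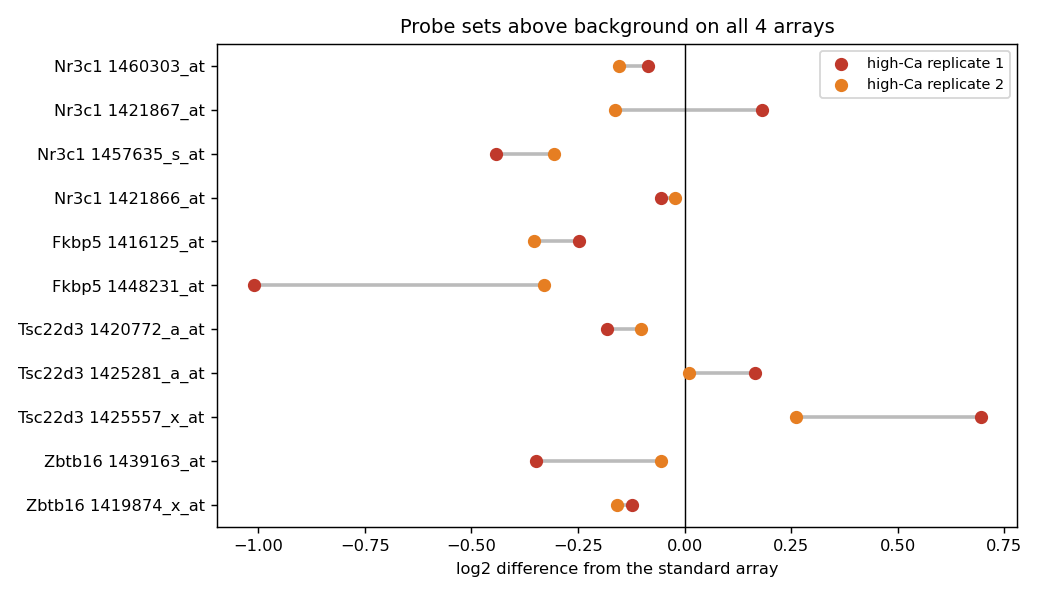
Log2 difference from the standard array (horizontal axis) of every probe set above background on all 4 arrays for Nr3c1, Fkbp5, Tsc22d3 and Zbtb16, with a point for each high-calcium replicate. Both Fkbp5 and both Zbtb16 probe sets lie left of 0 on both replicates, whereas the 3 Tsc22d3 probe sets lie on both sides.

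Sgk1, a kinase that promotes sodium transport and adipocyte survival, had 0.38 and 0.78 on the high-calcium arrays, against 0.98 on the standard array, and 0.93 on the array of open diet. Both high-calcium arrays were the lowest of the 4. The difference was -0.40 (SE 0.39, 95% interval from -1.84 to 1.05), a signal 1.32-fold lower, and it was close to the gap of 0.40 between the high-calcium arrays. It was -0.60 on replicate 1 and -0.20 on replicate 2. Sgk1 is the gene whose window, shown above, holds the full palindrome, and no binding was measured here. Endothelial signal, summed fibroblast and progenitor signal and, on replicate 1, macrophage signal were lower together with these targets, at the values given above. Their part in the differences was not tested.

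Cdkn1a and Mt2 were higher on both high-calcium arrays. Cdkn1a, an inhibitor of cell cycle kinases, had 1.39 and 1.58 on the high-calcium arrays, against 1.12 on the standard array, and 1.63 on the array of open diet. The standard array was the lowest of the 4, and the difference of 0.36 (SE 0.34), 1.29-fold, exceeded the gap of 0.19 between the high-calcium arrays. The other Cdkn1a probe set, 1421679_a_at, was split and not above background on replicate 1. Mt2, a small protein that binds zinc and copper, had 2.08 and 1.91 on the high-calcium arrays, against 1.64 on the standard array, and 1.97 on the array of open diet. Here too the standard array was the lowest, with a difference of 0.36 (SE 0.33), 1.28-fold. Mesothelial and summed adipocyte signal were higher together with Cdkn1a and Mt2, at the values given above, and their part in the differences was not tested. Mt1, the neighbouring paralogue of Mt2, picked after its values were seen, was higher on both as well, at 2.85 and 2.71 on the high-calcium arrays against 2.65 on the standard array. Its probe set was 1422557_s_at, whose name marks it as one that can share transcripts. In 5 of the 10 genes the difference between diets exceeded the gap between the high-calcium arrays, compared with 39.4% of the genes above background. Those 5 were Nr3c1, Fkbp5, Tsc22d3, Cdkn1a and Mt2.

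**Figure D3:**
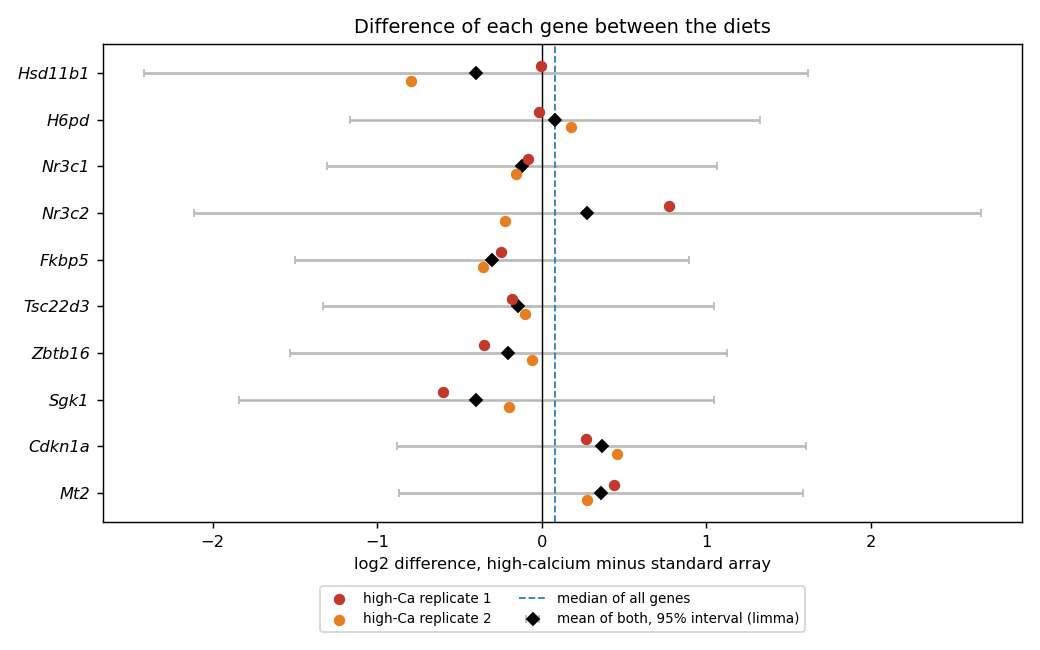
Log2 difference of each gene, high-calcium minus standard array (horizontal axis), for replicates 1 and 2 (circles) and their mean with limma's 95% interval (diamond and bar). Every interval includes 0, and the mean differences lie between -0.40 and 0.36, on either side of the median of all genes at 0.08 (dashed line).

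Chaperones and coregulators of the receptor differed in both directions. Of 19 listed receptor chaperones and coregulators, 14 were measured, 2 were higher and 5 lower on both high-calcium arrays, none passed limma's adjusted threshold, and the median difference was -0.02. Of the genes above background, 35.5% were higher and 26.8% lower on both. The list median was -0.34 on median-centred arrays, -0.13 without probe sets that can share transcripts and -0.10 with the mean of probe sets above background. Ep300, a histone acetyltransferase, had -0.56 and -0.71 on the high-calcium arrays, against -0.17 on the standard array, a difference of -0.46 (SE 0.33). The receptor coactivators Ncoa2 (-0.18, SE 0.32) and Ncoa1 (-0.17, SE 0.32) differed less, with both arrays on the lower side. Fkbp4, the co-chaperone that opposes Fkbp5, was at 0.19 and -0.84 on the high-calcium arrays, against -0.79 on the standard array, so that its difference of 0.47 (SE 0.66) came from replicate 1 and was -0.05 without it.

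Other glucocorticoid-induced genes showed no shared direction. All 27 listed genes were measured, 6 were higher and 7 lower on both arrays, against 38.6% higher and 23.9% lower of all genes. None passed limma's adjusted threshold, and the median difference was 0.06, against 0.08 over all genes. The widest difference was that of Fam107a, an actin-binding protein induced by stress and glucocorticoids in brain. It had -2.65 and -2.86 on the high-calcium arrays, against -0.93 on the standard array, and -1.42 on the array of open diet. The difference of -1.83 (SE 0.34, 95% interval from -3.08 to -0.57) was a 3.55-fold lower signal, with an unadjusted p of 0.022 and an adjusted p of 0.978 in limma. A second Fam107a probe set above background was lower on both arrays too, at -3.04 and -3.97 on the high-calcium arrays against -2.54 on the standard array, a smaller mean difference of -0.97. Ddit4, which restrains mTORC1, was at -0.13 and 0.25 on the high-calcium arrays, against 0.84 on the standard array, a difference of -0.77 (SE 0.38), yet the array of open diet was lower still at -0.90. Pdk4, which restrains pyruvate oxidation, was at 1.23 and 1.59 on the high-calcium arrays, against 0.82 on the standard array, a difference of 0.59 (SE 0.38). Cdkn1c, a cell cycle inhibitor related to Cdkn1a, differed by -0.44 (SE 0.33), opposite in sign to Cdkn1a.

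**Figure D4:**
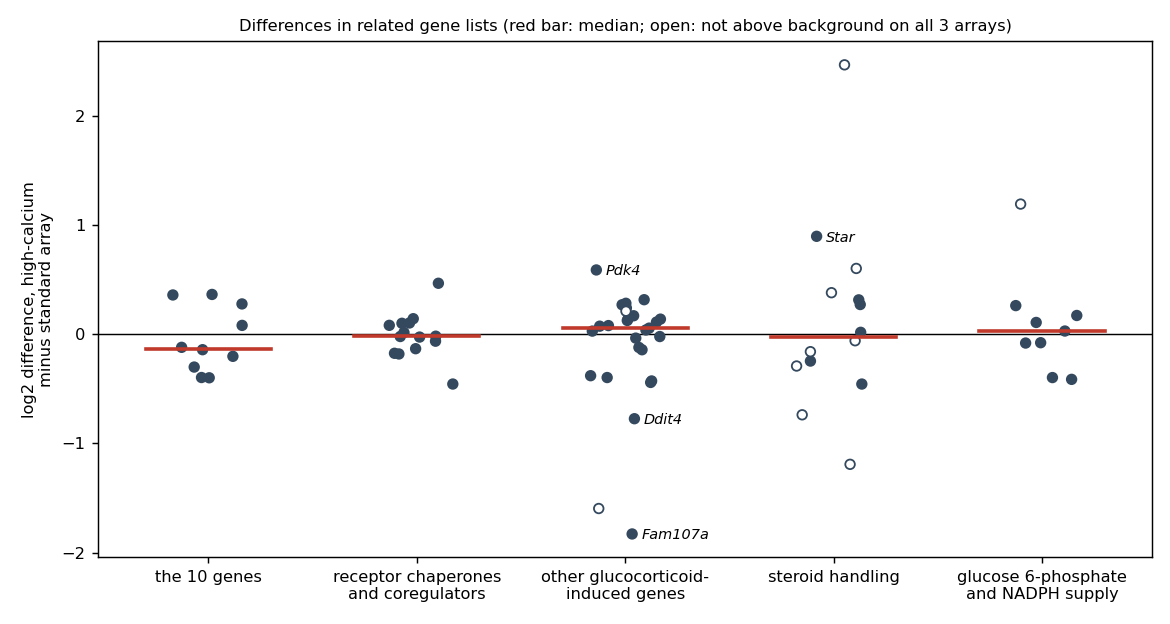
Log2 difference, high-calcium minus standard array (vertical axis), of the 10 genes and of every measured gene of 4 related lists, with red bars at the medians and open circles for genes not above background on all 3 labelled arrays. The medians of the 4 lists lie between -0.02 and 0.06, and Fam107a is the lowest point.

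Steroid handling genes were mostly dim, with 6 of 14 measured members (of 16 listed) above background on the 3 labelled arrays. Over all 14 measured members, 4 were higher and 3 lower on both arrays and none passed, against 38.6% higher and 23.9% lower of all genes. Among the 6 above background, 2 were higher and 2 lower on both. The median difference over the 14 was -0.02, whereas the medians of replicates 1 and 2 by themselves were 0.09 and 0.14. Star, which carries cholesterol into mitochondria, was at -1.64 and -2.23 on the high-calcium arrays, against -2.83 on the standard array, a difference of 0.90 (SE 0.46). Mc2r, the ACTH receptor, which mouse adipocytes carry, was at 0.73 and 0.69 on the high-calcium arrays, against 0.40 on the standard array, a difference of 0.31 (SE 0.32). Abcb1b, a drug and steroid exporter, differed by -0.46 (SE 0.34), and the carbonyl reductase Cbr1 by 0.27 (SE 0.45), replicate 1 giving 0.56 and replicate 2 giving -0.02. Genes that supply glucose 6-phosphate and NADPH, of which 9 of 10 were measured, had 4 members higher and 2 lower on both arrays, against the same shares of all genes. Their median difference was 0.03, and none passed. Taldo1, transaldolase of the pentose phosphate pathway, was at 2.94 and 3.11 on the high-calcium arrays, against 3.44 on the standard array, a difference of -0.41 (SE 0.33). The NADPH-forming Idh1 differed by 0.26 (SE 0.32) and the pentose phosphate enzyme Pgls by 0.17 (SE 0.36). Slc37a2, a sugar phosphate exchanger, differed by -0.40 (SE 0.66), replicate 1 giving -0.91 and replicate 2 giving 0.12.

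Genes with the profile most like Hsd11b1 and Nr3c2, the member with the widest range, were sought among the 10463 other genes above background on all 4 arrays, by Euclidean distance between mean-centred log2 values over those 4 arrays. The nearest to Hsd11b1 were Vegfd (distance 0.059 log2 units), Gzmb (0.073) and Gatb (0.076). The nearest to Nr3c2 were Map3k14 (0.032), Spata13 (0.036) and Leng8 (0.042). With 4 arrays close profiles are common: 48 genes lay within 0.2 log2 units of Hsd11b1 and 42 within 0.2 of Nr3c2. After quantile normalization Gzmb lay at 0.53 and Gatb at 0.25 from Hsd11b1, and Spata13 at 0.13 and Leng8 at 0.080 from Nr3c2, whereas Vegfd (0.051) and Map3k14 (0.030) stayed close.

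The sign of several small differences depended on the scale and on the probe set. Centring each array on its own median shifted the difference of all genes by -0.32 log2 units, a constant for every gene, so that the median of the 10 stayed at -0.21 relative to that of all genes by construction. That relative median was -0.12 after quantile normalization, -0.07 with the mean of probe sets above background and 0.035 with the mean of all probe sets. On median-centred arrays Cdkn1a and Mt2 were no longer higher on both arrays, the count being 0. Averaging every probe set per gene, which brings in those under background, turned Fkbp5 to 0.47, Zbtb16 to 0.48 and Cdkn1a to -0.36. The mean of probe sets above background, a setting added after the data had been seen, gave -0.49 for Fkbp5 and -0.17 for Zbtb16. Cdkn1a has 1 probe set above background, so its 0.36 under that setting is the main value again. Hsd11b1, Nr3c1, Sgk1 and Mt2 kept their direction under all 11 alternatives run, although several alternatives could not change it. Hsd11b1, Sgk1 and Mt2 have 1 probe set each, so the choice or averaging of probe sets returned the same value. The variance model and the filter on dim genes also leave a difference unchanged. Without replicate 2 Hsd11b1 kept its sign only at -0.0065.

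**Figure D5:**
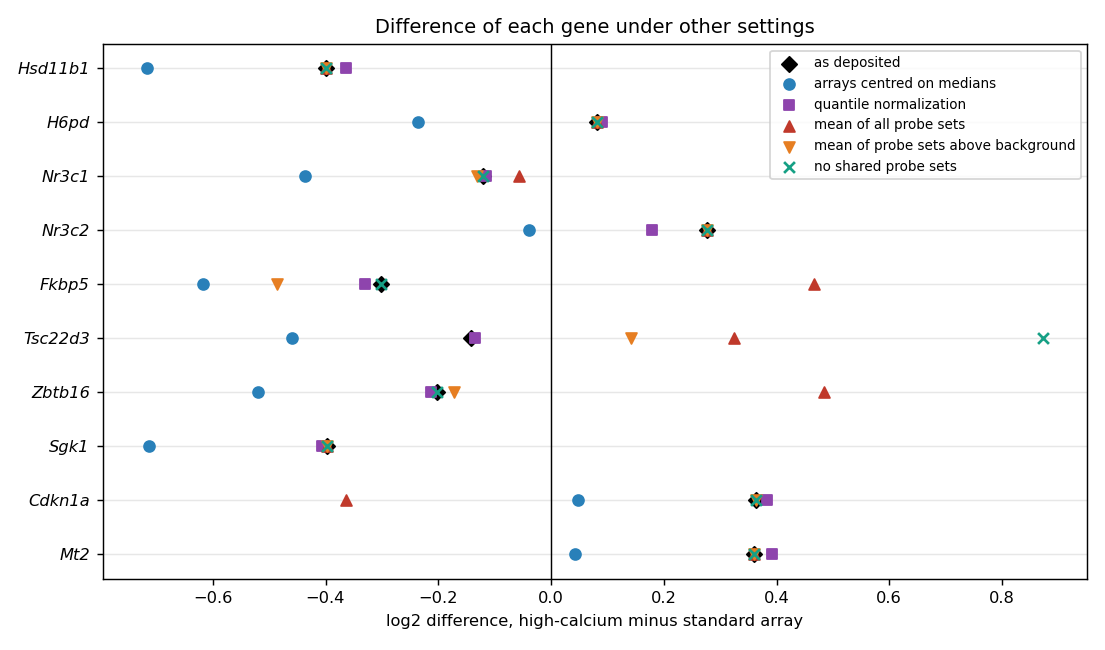
Log2 difference of each gene, high-calcium minus standard array (horizontal axis), as deposited and under 5 other settings. Centred arrays (blue circles) are shifted by -0.32 from the deposited values for every gene, and the red triangles for the mean of all probe sets lie on the other side of 0 for Fkbp5, Tsc22d3, Zbtb16 and Cdkn1a.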

How the data were processed

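Epididymal fat RNA labelled with biotin was hybridised to 4 one-colour Affymetrix Mouse Genome 430 2.0 arrays, per the labels' protocols. The deposited values are linear intensity values, 1 per probe set, for 45101 probe sets. RMA stands in the submitters' processing notes without a version, yet the values are not on its log2 scale. On every array 88.5% to 88.6% of values lie under 1, and the lowest value of each array is a fixed fraction of its median, so the authors' scaling between arrays is not known here. Intensities were log2 transformed with no further scaling. The platform annotation gave 34958 probe sets with 1 gene symbol, 932 with several and 9211 with none; 34754 matched a current RefSeq gene record, used for names only.

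The 2 high-calcium arrays were compared with the 1 standard array by limma 3.58.1 in R 4.3.3 over all 18194 genes, two-sided, with Benjamini-Hochberg adjustment at 0.05, leaving 1 residual degree of freedom and 2.38 after moderation. Each array came from its own mouse per the labels. The p-values and SEs combine each gene's spread between the 2 high-calcium arrays with a prior spread that limma estimated over all genes. Where the gap is small the prior sets most of the SE, as for Nr3c1 (gap 0.07, SE 0.32). The lone standard array was assumed to vary alike. No 2 arrays were identical. The array of open diet entered no fit. The procedure was tested on simulated data. Promoter windows came from RefSeq. Figures were drawn with matplotlib 3.10.9.

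The members and lists were chosen with earlier results of these data known, and no list was tested. Every member was named, and from each other list the 4 genes above background on the 3 labelled arrays with the largest differences, and for Hsd11b1 and the member of widest range the 3 genes of nearest profile. Mt1 and Hsd11b2 are outside that rule. The log2 ratio of 3' over 5' control signal lay between -0.54 and -0.42 for Gapdh and between 0.52 and 0.76 for actin. Alternatives covered scaling, probe set choice, dim genes, an added constant, the variance model and leaving out a high-calcium array, with the mean of probe sets above background added after the data had been seen.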

Additional observations from a re-analysis of the deposited data

Results flagged for a closer look

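The array of open diet entered no fit, although it took part in the choice of probe sets and in the profile distances. On it Hsd11b1, H6pd, Nr3c1, Nr3c2 and Sgk1 lay below the standard array, and Fkbp5, Tsc22d3, Zbtb16, Cdkn1a and Mt2 lay above. Log2 signals on the array of open diet were -0.015 for Fkbp5, 1.19 for Tsc22d3, 0.55 for Zbtb16, 1.63 for Cdkn1a and 1.97 for Mt2. On the standard array these genes had -0.46, 0.82, 0.31, 1.12 and 1.64. Fkbp5, Tsc22d3, Zbtb16 and Cdkn1a had the highest of their 4 values on the array of open diet, which held for 19.0% of the 10464 genes above background on all 4 arrays. For Tsc22d3 this held for 2 of the 3 probe sets above background, 1425281_a_at being at 0.37 there, while on 1425557_x_at the array of open diet was the lowest, at -2.04. The difference was not tested, because the diet of that mouse is not settled.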

How the results depend on the processing

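The number of arrays limits every value, and with 1 standard array no setting can separate diet from mouse. Of 109 differences of the 10 genes under 11 alternatives, 99 kept their direction and 10 did not, and none passed the threshold in any of them. Many of the 99 repeat the main value by construction. The variance model and the filter on dim genes leave a difference unchanged, and so does probe set choice for a gene with 1 probe set. No paired analysis was possible because each array came from its own mouse and the labels name no pairs between diets. limma called 96 genes on median-centred arrays, 61 of them higher, and 6 with a trend and robust estimation, in place of 0. Leaving out an array leaves no residual degree of freedom, so those settings give values without a test.

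Centring the arrays on their medians moved every difference and list median by the same -0.32 log2 units, so the turns under it follow from that constant. On median-centred arrays 0 of the 10 genes were higher on both high-calcium arrays and their median was -0.45, while H6pd turned to -0.24, Nr3c2 to -0.040, Mc2r to -0.0025, Cbr1 to -0.045, Idh1 to -0.055 and Pgls to -0.15. The list medians were then -0.26 for glucocorticoid-induced genes, -0.29 for NADPH supply, -0.34 for chaperones and coregulators and -0.34 for steroid handling, which was at -0.23 after quantile normalization. With the mean of all probe sets 2 genes were lower on both, the median of the 10 turned to 0.18, and Fkbp5 turned to 0.47, Tsc22d3 to 0.32, Zbtb16 to 0.48, Cdkn1a to -0.36, Ncoa2 to 0.12 and Abcb1b to 0.11. List medians were then 0.017 for chaperones and coregulators, -0.036 for glucocorticoid-induced genes, 0.13 for steroid handling and -0.0041 for NADPH supply. Without probe sets that can share transcripts the median of the 10 was -0.020, that of chaperones and coregulators -0.13, Tsc22d3 turned to 0.87 on a probe set under background, and the lists of steroid handling and NADPH supply to 0.084 and -0.042. The mean of probe sets above background, added after the data had been seen, gave a median of -0.025, chaperones and coregulators at -0.10, Tsc22d3 at 0.14, steroid handling at 0.11 and NADPH supply at -0.032. Steroid handling was 0.096 with an added constant and 0.14 over genes above the median signal, where NADPH supply was -0.024.

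Leaving out 1 high-calcium array gave ranges of -0.13 to -0.051 for the median of the 10, -0.017 to 0.18 for H6pd, -0.22 to 0.78 for Nr3c2, -0.049 to 0.98 for Fkbp4, -0.015 to 0.56 for Cbr1 and -0.91 to 0.12 for Slc37a2. The list medians ranged from -0.072 to 0.0048 for chaperones and coregulators, -0.094 to 0.095 for glucocorticoid-induced genes and 0.090 to 0.14 for steroid handling. The cause of these turns was not tested.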
